A study of Mus musculus with 12 samples.

Results

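The hormones of the anterior pituitary and the transcription factors of its cell lineages were followed across 12 arrays of cultured mouse trigeminal ganglion (TG) neurons. The set was a list of 9 genes: the hormone genes Prl, Gh, Cga, Pomc, Lhb and Tshb and the lineage factor genes Pou1f1, Pitx1 and Tbx19. The genes were chosen by the log2 signals of these same arrays, in which Prl had been seen to differ, so their signals are described here without a test. Of the 9 genes, 8 were measured among 19505 gene symbols, each by 1 probe set (called a probe), and Pou1f1 was not analysed here. TG neurons carry touch, pain and temperature from the head. They were plated on laminin as a primary culture and transfected with scramble miRNAs, miR-21, miR-34a or miR-324. Each group had 3 arrays, here named by group and by a number from the label (scramble 1, 2 and 3, miR-21 1, 2 and 3, miR-34a 1, 2 and 3, and miR-324 1, 2 and 4). The labels give no strain, age, dose, time or arm of miR-324, and nothing in them ties an array to its own animal or dish, so the spread behind the p-values is that of these arrays alone and may be technical.

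The anterior pituitary is an endocrine gland at the base of the skull, and each of its cell types is known for its hormone. Lactotrophs make prolactin (Prl), somatotrophs growth hormone (Gh), thyrotrophs and gonadotrophs the glycoprotein hormones, and corticotrophs the corticotropin precursor (Pomc). The glycoprotein hormones share the alpha chain Cga, which pairs with Tshb in thyrotropin and with Lhb in luteinizing hormone. Pitx1 acts across the lineages, Pou1f1 in lactotrophs, somatotrophs and thyrotrophs, and Tbx19 in cells that make Pomc. None of the hormones is a known product that defines sensory neurons.

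Promoters of 7 of the 9 genes were taken from a table of RefSeq promoters (GRCm38.p6), and those of Gh and Pitx1 were not analysed here. The 250 bases before the start site are shown for Prl and Cga, which differed most between arrays, and for Lhb, whose product pairs with that of Cga. Capitals mark matches on either strand to a motif of Pou1f1 (TATNCAT), of Pitx1 (TAATCC), of Nr5a1, a gonadotroph factor (TGACCTTG), or of Tbx19 (TCACACC).
Prl, chr13:27057320-27057569, plus strand: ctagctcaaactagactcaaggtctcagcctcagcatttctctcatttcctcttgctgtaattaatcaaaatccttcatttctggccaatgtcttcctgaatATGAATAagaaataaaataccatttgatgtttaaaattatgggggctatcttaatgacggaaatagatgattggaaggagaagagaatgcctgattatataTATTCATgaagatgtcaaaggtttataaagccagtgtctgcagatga
Cga, chr4:34893529-34893778, plus strand: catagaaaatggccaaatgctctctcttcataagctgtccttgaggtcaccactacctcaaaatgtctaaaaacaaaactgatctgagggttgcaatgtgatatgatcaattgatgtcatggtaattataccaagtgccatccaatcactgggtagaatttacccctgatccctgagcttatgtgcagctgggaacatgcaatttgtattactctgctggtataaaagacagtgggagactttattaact
Lhb, chr7:45420696-45420945, plus strand: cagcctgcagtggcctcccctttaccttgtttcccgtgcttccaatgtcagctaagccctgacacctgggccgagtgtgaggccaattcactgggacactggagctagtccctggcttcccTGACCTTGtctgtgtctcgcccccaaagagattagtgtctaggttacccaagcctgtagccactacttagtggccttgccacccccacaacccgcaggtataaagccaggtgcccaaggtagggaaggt
The Prl window held 2 matches to the Pou1f1 motif. One began 148 bases before the start site, on the opposite strand, and the other began 47 bases before it. Of 32851 promoter windows of the same length, 7.92% held this motif, 6.25% the Pitx1 motif, 1.33% the Nr5a1 motif and 3.33% the Tbx19 motif. The Lhb window held 1 match to the Nr5a1 motif, 129 bases before the start site. The windows of Cga, Pomc, Tshb and Tbx19 held none of the 4 motifs in these letters, and 1 of the 2 windows of Pou1f1 held its own motif. No motif overlapped another, and a match is a description of letters, not a measured binding site.

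Signals are deposited log2 values, and the median of the arrays lay between 5.91 and 6.06. The level of genes that are not in use was read from 1412 probes for olfactory and vomeronasal receptors. The 95th percentile of these probes on an array is called its floor here, and it lay between 4.87 and 5.80. Some arrays stood apart from their group. Scramble 3 and miR-34a 3 had a median macrophage marker signal of 4.55 and 4.61, against 7.36 to 7.90 in the other scramble and miR-34a arrays. The label of scramble 1 and 2 and of miR-34a 1 and 2 carries a shared suffix (suffix A), that of scramble 3 and miR-324 2 another (suffix B), and the other 6 labels none. The labels of scramble 3 and miR-324 2 also hold the word mimic, which no other label does, and the labels do not explain it. Markers of sensory neurons were present on every array, with 8 to 11 of 11 measured genes above the floor. Snap25, a synaptic fusion protein, stood at 12.09 or higher throughout.

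Prl was the gene with the widest range of all 19505 symbols over the 12 arrays. Its signal was 3.42, 4.83 and 14.92 in scramble 1, 2 and 3 and 14.98, 14.26 and 15.17 in miR-324 1, 2 and 4. After miR-21 the 3 arrays read 3.37, 3.95 and 3.98, and after miR-34a 3.37, 4.22 and 4.01. Thus 4 arrays, scramble 3 and all of miR-324, lay far above the floor and the other 8 below it, with no array in the gap of 9.43 log2 units between 4.83 and 14.26. The 4 high arrays lay within 0.91 of each other. In bulk RNA, fewer cells of a type cannot be told apart from less RNA per cell. The lowest and highest arrays lay 11.80 apart. Taken against the highest floor of the 8 low arrays, since their own signals were not above background, the highest array was at least 660-fold higher. The chromosome 13 gene (27057570 to 27065204, GRCm38.p6) has many relatives in the mouse that are made mainly in the placenta. Of 23 measured relatives, named Prl followed by a family code, 18 were above the floor on no array, and none exceeded 7.01. Prl2c2 and Prl2c3, which encode proliferins, stood at 5.35 and 5.97 in scramble 3 and at 4.28 and 4.60, 5.69 and 5.96, and 5.12 and 5.82 in miR-324 1, 2 and 4. Prl2c2 was above the floor only in scramble 3 and miR-324 2, and Prl2c3 only in these and miR-324 4. In miR-324 1, with Prl at 14.98, both were below it. On the other 8 arrays both were below the floor, and Prl2c2 was higher in miR-34a 3, at 4.77, than in miR-324 1. The other 3 relatives with any signal above the floor were highest on arrays without Prl. Prl7c1 was above the floor on 8 arrays, with its highest signal, 7.01, in miR-21 2, 5.35 in scramble 3 and 5.29 to 6.36 in miR-324. Prl2c1 was above it on 5 arrays, with 6.12 in miR-21 2 and 6.04 in scramble 2. Scramble 3, at 5.70, was among these 5, whereas miR-324 stood at 4.30 to 4.72. Prl2b1 was above it only in miR-34a 3, at 5.75. These relatives were looked up after the values of Prl were seen, and sharing of probes between them was not tested.

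**Figure D1:**
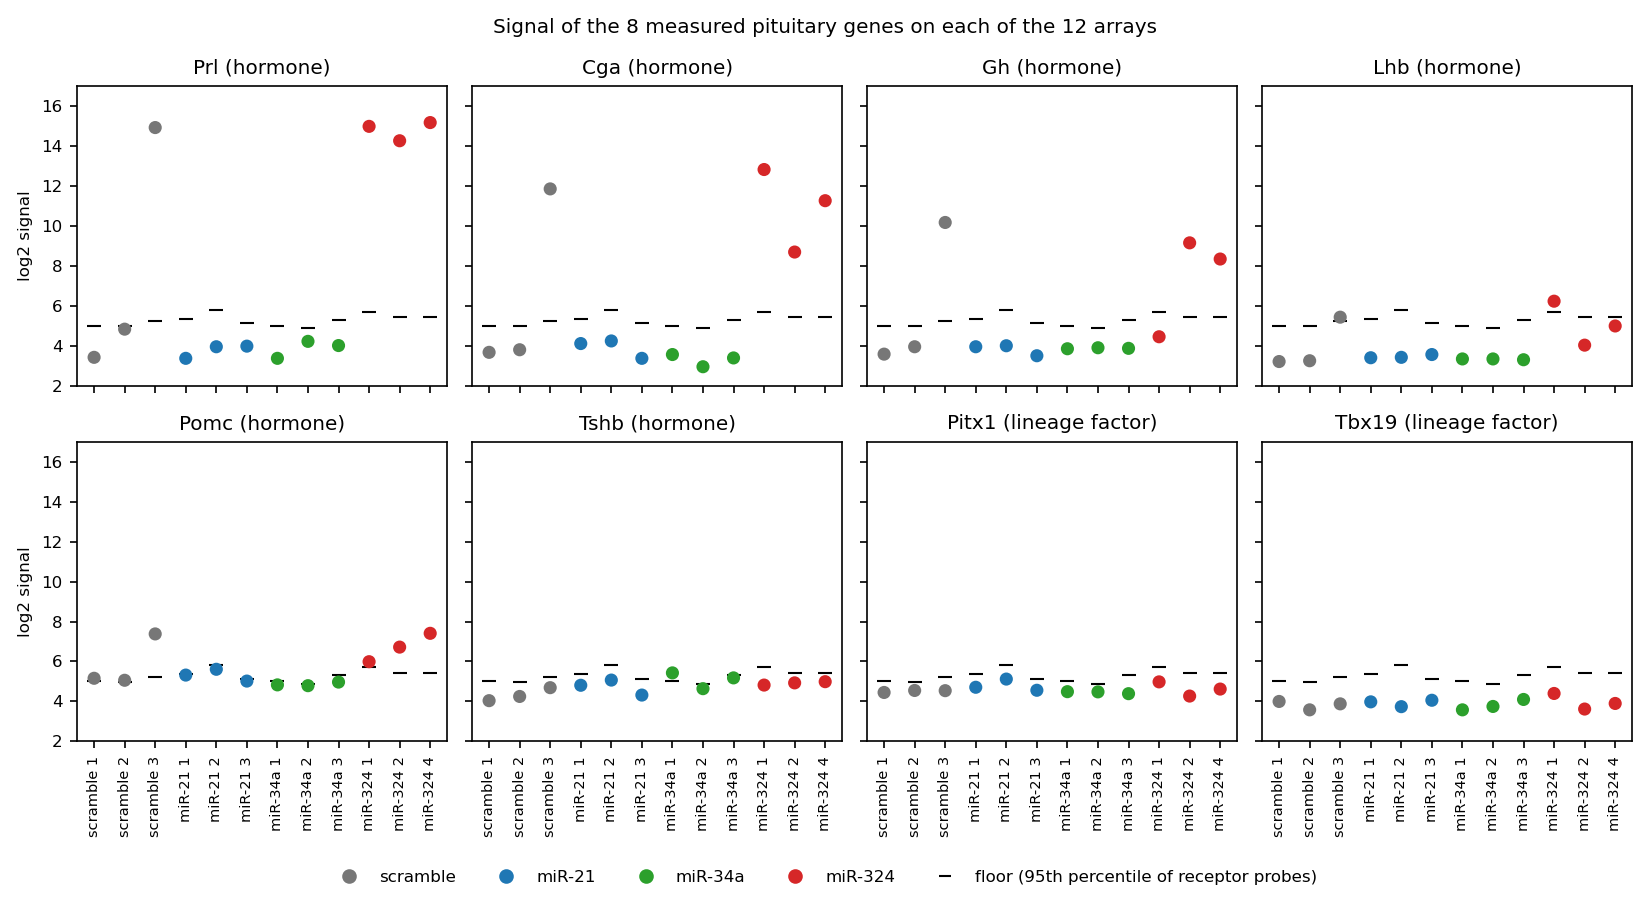
Log2 signal (vertical axis) of the 8 measured genes on the 12 arrays (horizontal axis), 1 point per array, coloured by group; black dashes are each array's floor, the 95th percentile of olfactory and vomeronasal receptor probes. Prl stands at 14.26 to 15.17 in scramble 3 and the miR-324 arrays and at 4.83 or lower elsewhere, while Pitx1 and Tbx19 lie below the floor on every array.

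Cga, the shared alpha chain, was high on the same 4 arrays as Prl but at unequal levels. Its signal was 11.85 in scramble 3 and 12.82, 8.69 and 11.26 in miR-324 1, 2 and 4. Scramble 1 and 2 read 3.67 and 3.80. The arrays of miR-21 read 4.11, 4.24 and 3.37, and those of miR-34a 3.56, 2.95 and 3.39. The 8 lower arrays all lay below the floor, and the gap to the 4 higher ones was 4.45. Its range of 9.87 was the fourth widest of all genes, and its highest array was at least 129-fold above the low ones by the same bound. Within miR-324 the signal was 17.5-fold higher in replicate 1 than in replicate 2. Scramble 3 was at least 115-fold above scramble 1 and 2, taken against their floor.

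The beta chains that pair with Cga moved less or stayed below the floor. Lhb, the beta chain of luteinizing hormone, had a signal of 5.43 in scramble 3 and 6.23, 4.03 and 4.99 in miR-324 1, 2 and 4. It stood between 3.21 and 3.56 on the other 8 arrays. Only scramble 3 and miR-324 1 were above the floor, although the order of the 4 highest arrays (miR-324 1, scramble 3, miR-324 4, miR-324 2) was that of Cga. Tshb, the beta chain of thyrotropin, read 4.04, 4.25 and 4.69 after scramble and 4.82, 4.93 and 4.99 after miR-324. After miR-21 it read 4.81, 5.07 and 4.32, and after miR-34a 5.43, 4.64 and 5.18. Its highest array was miR-34a 1, the only 1 above the floor, and the 4 arrays with Prl did not stand apart. Fshb, the beta chain of follicle-stimulating hormone and not on the list of 9, reached 6.16 in miR-324 1 and lay between 3.86 and 5.67 elsewhere.

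Gh was high on 3 arrays. Growth hormone signal was 10.17 in scramble 3 and 4.45, 9.15 and 8.34 in miR-324 1, 2 and 4. It was 3.58 and 3.95 in scramble 1 and 2 and between 3.50 and 4.00 in the miR-21 and miR-34a arrays. miR-324 1 thus lay below its floor of 5.71 for Gh, while the same array had a Prl signal of 14.98 and the highest Cga and Lhb signals. Gh was at least 10.9-fold lower in miR-324 1 than in miR-324 2, taken against the floor of miR-324 1, whereas Cga, above the floor on both arrays, was 17.5-fold higher.

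Pomc, the precursor of corticotropin and of opioid and melanotropic peptides, differed by less. Its signal was 7.38 in scramble 3 and 5.99, 6.72 and 7.41 in miR-324 1, 2 and 4, against 5.16 and 5.06 in scramble 1 and 2. The arrays of miR-21 read 5.32, 5.61 and 5.02, and those of miR-34a 4.83, 4.79 and 4.97. The 4 arrays with Prl were again the 4 highest, but miR-324 1 and miR-21 2 lay only 0.38 apart. Pomc was above the floor on 6 arrays, these 4 and, by 0.16 or less, scramble 1 and 2.

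The 2 lineage factors measured did not follow the hormones. Pou1f1, the listed factor of lactotrophs and somatotrophs, was not analysed here. Pitx1, a homeobox factor of all anterior pituitary lineages, stood at 4.45, 4.55 and 4.54 after scramble and 4.98, 4.27 and 4.62 in miR-324 1, 2 and 4. After miR-21 it stood at 4.71, 5.12 and 4.56, and after miR-34a at 4.49, 4.48 and 4.39. Tbx19, a T-box factor of the Pomc lineages, stood at 4.00, 3.58 and 3.88 after scramble and 4.40, 3.62 and 3.90 after miR-324. After miR-21 it stood at 3.98, 3.74 and 4.06, and after miR-34a at 3.58, 3.75 and 4.10. Both were below the floor on all 12 arrays, and their ranges of 0.85 and 0.82 were narrower than the median of all genes, 1.33. Scramble 3 lay within the range of scramble 1 and 2 for both. The ranges of Prl, Cga, Gh, Lhb, Pomc and Tshb were 11.80, 9.87, 6.67, 3.02, 2.62 and 1.39. A signal below the floor is a limit of the array, and it does not show that the transcript was absent.

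**Figure D2:**
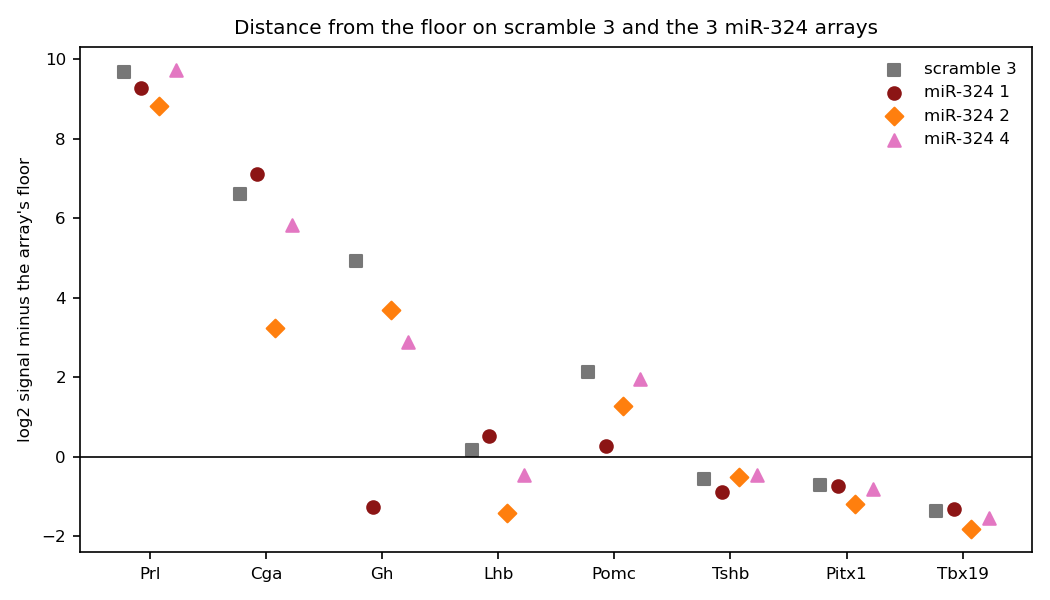
Log2 signal minus the array's own floor (vertical axis) for the 8 genes (horizontal axis) on scramble 3 and the 3 miR-324 arrays, 1 symbol per array; the line marks the floor. The arrays lie close together for Prl, spread from 8.69 to 12.82 in signal for Cga, and change order for Gh, where miR-324 1 falls below the line.

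Between groups the difference rested on how many arrays of a group were high. Prl was 14.80 ± 0.48 in miR-324 (SD, n = 3), 3.77 ± 0.34 in miR-21, 3.87 ± 0.44 in miR-34a and 7.72 ± 6.27 in scramble. The SD of scramble reflects 1 array: miR-324 minus scramble was 7.08 with all arrays and 10.68 without scramble 3. For Cga the same difference was 4.48 with all arrays and 7.19 without scramble 3, and for Gh it was 1.41 and 3.55. Leaving out some of the other arrays lowered these differences. Prl was 4.93 and Cga 3.10 without scramble 1, and Gh 0.25, 0.44 and 0.50 without scramble 1, scramble 2 or miR-324 2. Other omissions raised them: Prl and Cga rose without miR-324 2, and Gh without miR-324 1. For Pomc (0.84) and Lhb (1.12) the values without 1 array ran from 0.44 to 1.60 and from 0.55 to 1.85. Within suffix B, miR-324 2 was lower than scramble 3 in Prl, Cga, Gh, Lhb and Pomc, by 0.66, 3.16, 1.02, 1.40 and 0.66, with 1 array each and no test. Within suffix A, scramble and miR-34a had 2 arrays each, and the means of these 5 hormones differed by 0.48 or less. Among the 6 arrays without a suffix, miR-324 1 and 4 had a mean Prl signal of 15.08, against 3.77 in the miR-21 arrays and 4.01 in miR-34a 3. High Prl was thus found on both arrays of suffix B, on none of suffix A and, without a suffix, only in miR-324 1 and 4. Scramble and miR-324 shared only suffix B, with 1 array each, and the part of suffix and of group was not tested.

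Against miR-21 and against miR-34a, all 3 miR-324 arrays lay above all 3 arrays of the other group for Prl, Gh, Cga, Pomc and Lhb. This is 5 of the 8 measured genes in each comparison, where 8.4% and 9.25% of all 19572 named probes did so. The 2 comparisons share the miR-324 arrays, and the genes were chosen for this pattern, so nothing is read from the counts. Of the miR-324 values, Gh in miR-324 1 and Lhb in miR-324 2 and 4 were below the floor. The median difference of the 8 genes was 1.51 against miR-21 and 1.80 against miR-34a, beside −0.05 and 0.03 over all named probes. Against scramble, only Tshb had miR-324 arrays all above the scramble arrays (12.6% of all probes), at 4.91 ± 0.09 against 4.33 ± 0.33, with all 6 values below the floor. After miR-21, only Pitx1 lay above all scramble arrays (16.9% of all probes), again below the floor. After miR-34a, Cga and Pomc lay below all scramble arrays (2.31% of all probes), and Pomc, Lhb and Pitx1 below all miR-21 arrays (10.9%). For Cga and scramble these values were all below the floor apart from scramble 3. The miR-34a and miR-21 values of Pomc, Lhb and Pitx1 were all below it.

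Further pituitary genes, which were not among the 9, were tested with limma over all named probes, and 0 of 38 measured genes (43 listed) passed an adjusted p under 0.05 in any of the 6 comparisons. The list held Fshb, 10 receptors of the hormones that steer the pituitary, 15 further lineage factors and 12 genes enriched in single pituitary cell types. In miR-324 against scramble 0% of all probes passed, and in miR-324 against miR-34a and miR-34a against scramble 0% as well. In miR-324 against miR-21, miR-21 against scramble and miR-34a against miR-21, 2.46%, 1.04% and 0.158% passed. At an unadjusted p under 0.05, 13 of 38 genes differed in miR-324 against scramble, where 14.7% of all probes did. The counts were 6 against miR-21 and 8 against miR-34a (14.7% and 13% of all probes), and 4, 0 and 3 for miR-21 against scramble, miR-34a against scramble and miR-34a against miR-21 (16.6%, 1.46% and 11.3%). The median difference of the list was 0.08, −0.10 and 0.24 for miR-324 against scramble, miR-21 and miR-34a. With array weights 11 of the 38 passed in miR-324 against scramble and 9 against miR-34a, when 2589 and 2806 of all 19572 probes passed too. With the suffix fitted as a fixed block 6 passed in miR-324 against miR-21 (1354 of all probes), 3 in miR-34a against miR-21 (1004) and 1 in miR-21 against scramble (684). The 6 were Dlk1, Sstr5 and Gata2, higher in miR-324, and Isl1, Rxrg and Aldh1a2, lower. The miR-21 arrays have no suffix, which they share with only 1 miR-34a array, miR-34a 3, and with no scramble array. The blocked comparisons of miR-21 with these groups are limited by this.

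The smallest adjusted p in the list belonged to Dlk1, a membrane protein of somatotrophs and other endocrine cells. It stood at 6.37, 4.60 and 4.92 in miR-324 1, 2 and 4, at 4.33, 3.40 and 3.44 in miR-21 and at 3.54, 3.93 and 3.79 in scramble. The difference from miR-21 was 1.57 ± 0.41 (SE, limma adjusted p = 0.0709). Only miR-324 1 was above the floor, and scramble 3, which had Prl, lay between scramble 1 and 2. Sstr5, a somatostatin receptor, stood at 5.82, 4.97 and 5.58 in miR-324 1, 2 and 4 and at 4.73 in scramble 3, against 4.06 to 4.77 elsewhere. It differed from miR-21 by 1.01 ± 0.29 and from scramble by 1.06 ± 0.29 (limma adjusted p = 0.106 and 0.309). With the suffix as a random block, Dlk1 and Sstr5 passed against miR-21 (limma adjusted p = 0.0282 and 0.0365). Gnrhr, the receptor through which gonadotrophs are stimulated, stood at 4.43 in scramble 3 and 5.14, 3.78 and 5.10 in miR-324 1, 2 and 4, all below the floor. These 3 genes and those of the next paragraph were named after their values were seen.

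Of the 38 genes, 18 were above the floor on no array, 4 on all arrays and 16 on some. The 4 were Lhx4, Gata2, Isl1 and Sox2, all lineage factors. Other cells of a ganglion culture can also express Gata2, Isl1 and Sox2. Lhx4 stood at 6.31 to 6.90, with a range of 0.59, the narrowest of the 38 genes, and the source of its signal was not tested. Isl1, a factor of sensory neurons as well as of the early pituitary, was 12.68, 12.96 and 9.55 in scramble 1, 2 and 3 and 9.35, 9.89 and 9.52 in miR-324 1, 2 and 4. It was also low in miR-34a 3, at 8.95, where Prl was 4.01. With the suffix as a fixed block it was lower in miR-324 than in miR-21 by 1.52 (limma adjusted p = 0.00142), against 1.40 without a block (0.552). For miR-34a minus miR-21 the difference was 0.26 without the block (limma adjusted p = 0.931) and −2.10 with it. The blocked value rests mainly on miR-34a 3, the only miR-34a array that, like those of miR-21, has no suffix. Gata2, a factor of gonadotrophs, thyrotrophs and endothelium, was 9.77, 7.85 and 8.34 in miR-324 and 8.70 in miR-34a 3, against 6.78 to 7.84 elsewhere. It differed from miR-21 by 1.15 without a block and 1.49 with the fixed block (limma adjusted p = 0.311 and 0.0146). Tgfbr3l, a gonadotroph protein, had its 4 highest signals on the arrays with Prl, 5.63 in scramble 3 and 6.32, 5.62 and 5.72 in miR-324 1, 2 and 4. It was 4.52 to 5.49 elsewhere and above the floor on 7 arrays. Among receptors, the dopamine receptor Drd2, the somatostatin receptor Sstr2 and the corticotropin-releasing hormone receptor Crhr1 were above the floor on 6, 6 and 3 arrays. Sstr5 was above it on 2 arrays, miR-324 1 and 4, and below it in scramble 3 and miR-324 2. Sstr2 was 3.98 in scramble 3 and 5.52, 4.23 and 4.51 in miR-324, below the floor on these 4 arrays. The receptors for growth hormone-releasing hormone (Ghrhr), thyrotropin-releasing hormone (Trhr) and vasopressin on corticotrophs (Avpr1b) were below the floor on all arrays. The factors Lhx3, Six6, Foxl2 and Neurod4 were below it as well. Galanin (Gal), made by lactotrophs and by injured sensory neurons, was 9.43 in scramble 3 and 4.32, 8.87 and 8.49 in miR-324 1, 2 and 4, and 4.09 to 6.48 elsewhere. Like Gh it was high on 3 of the 4 arrays with Prl and low in miR-324 1.

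**Figure D3:**
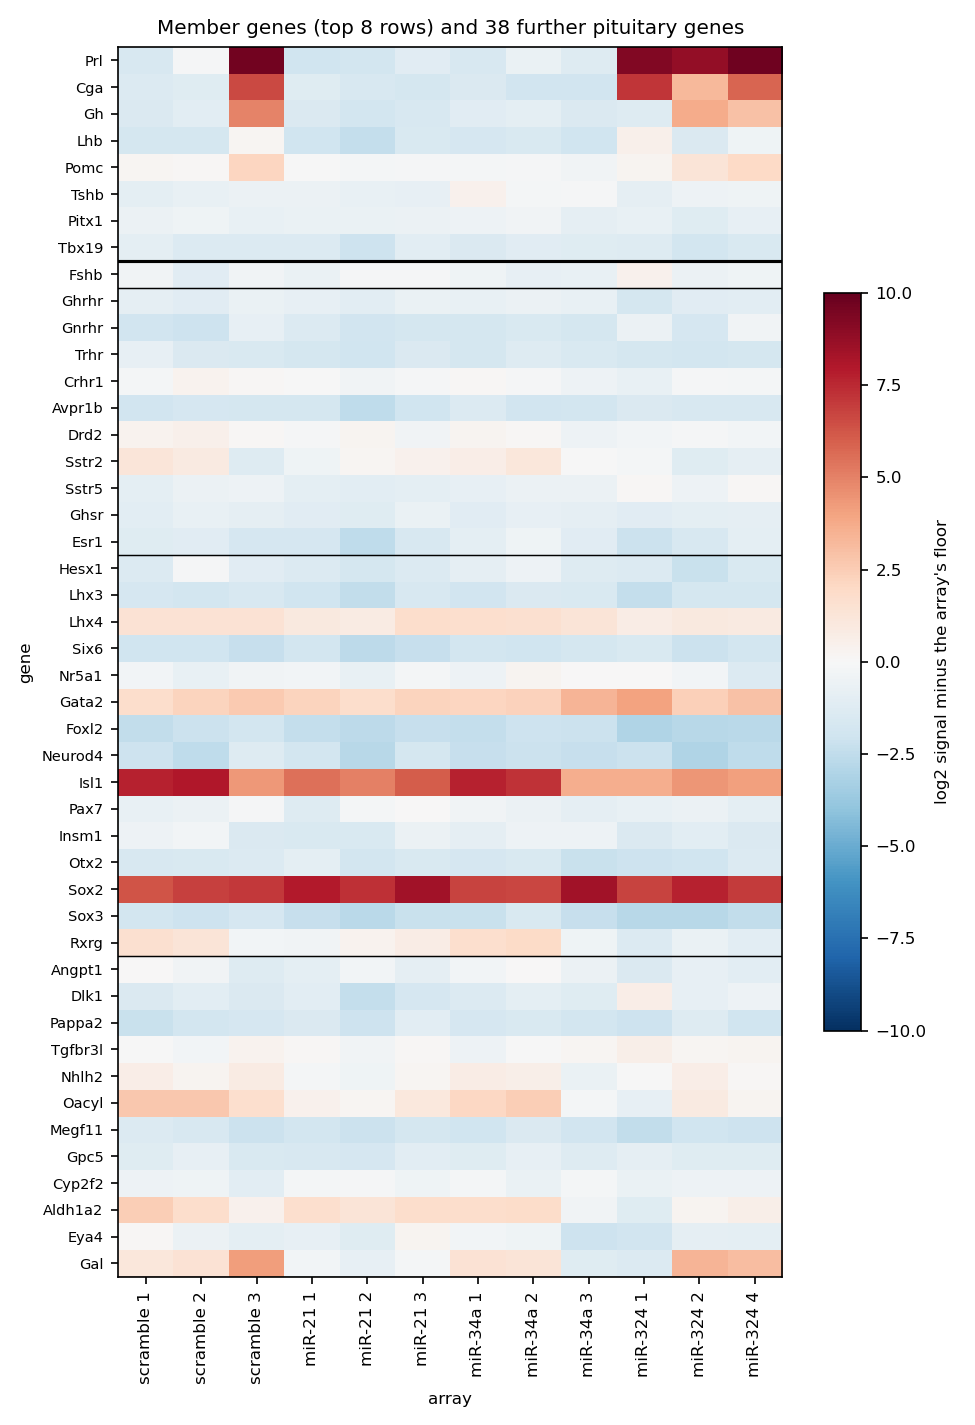
Log2 signal minus the array's floor (colour, red above and blue below) for the 8 measured genes of the list (top) and 38 further pituitary genes (below the thick line, in order the hormone Fshb, receptors, lineage factors and cell-enriched genes, separated by thin lines) on 12 arrays. Prl and Cga are red on 4 arrays, whereas Isl1 and Sox2 are red on all 12 and most receptors and factors are near or below the floor throughout.

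Genes that process prohormones, which neurons and endocrine cells share, were above the floor widely: 10 of 11 measured on all arrays. None passed in any of the 6 comparisons with limma. At an unadjusted p under 0.05, 7 of 11 differed in miR-21 against scramble (16.6% of all probes), 5 in miR-324 against miR-21 (14.7%) and 2 in miR-34a against miR-21 (11.3%). In miR-324 against scramble and against miR-34a 1 differed (14.7% and 13%), and in miR-34a against scramble 0 (1.46%). Pcsk1, the convertase that cuts Pomc, was 8.94 in scramble 3 and 6.56, 7.89 and 8.10 in miR-324 1, 2 and 4, but also 8.30 and 8.77 in scramble 1 and 2. Chgb, a granule protein, was 7.44 in scramble 3 and 7.28, 6.52 and 6.80 in miR-324, and 5.35 to 6.35 elsewhere, so that the 4 arrays with Prl were its 4 highest. Of 11 measured genes of the hypothalamus and posterior pituitary none passed in limma either, with 2 at an unadjusted p under 0.05 when miR-324 was set against scramble or miR-34a, 1 when miR-21 was set against miR-324 or miR-34a, and 0 in the others. Their ranges were all below 2 log2 units, and the highest was that of oxytocin (Oxt), at 6.85 in scramble 3 and 4.91 to 6.61 elsewhere.

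The genes whose profiles lay nearest to the hormones were found by the mean absolute difference over the 12 arrays, each profile centred on its own mean. Genes with placeholder names (Gm and Rik) were left out. The difference is not scaled to the range of a gene, so members of narrower range tend to have smaller distances. Prl and Cga, both chosen from these values, differed by 1.52, closer than Prl was to any gene compared outside the list. The nearest such genes were the Notch ligand Dll4 (2.39), the chemokine receptor Cxcr4 (2.75), the tight junction protein Cldn5 (2.84), the nucleotide kinase Cmpk2 (2.88) and the interferon-induced genes Ifit3b and Ifit3 (2.92 and 2.93). Dll4 was 14.24 in scramble 3 and 9.83, 14.05 and 13.64 in miR-324 1, 2 and 4, and 4.71 to 8.66 elsewhere. Ifit3 was 12.75 in scramble 3 and 14.54, 11.43 and 12.31 in miR-324, and reached 10.46 in miR-34a 3. For Cga the nearest were Ifit3, the antiviral protein Rsad2 and Cmpk2 (1.59, 1.60 and 1.62). For Gh, whose range was narrower, the nearest were the protease Adamts4 (0.48), Trp53i11 (0.52) and the sulfotransferase Chst1 (0.59). Adamts4 was 11.08 in scramble 3 and 6.85, 10.75 and 10.45 in miR-324 1, 2 and 4, and 5.94 to 6.90 elsewhere, which is the pattern of Gh and Gal with miR-324 1 low. Pomc lay nearest to Fosb, Camk1 and Nnmt (0.22, 0.29 and 0.29), and Lhb to the claudin Cldn4, Ly6i and Oasl1 (0.22, 0.30 and 0.33). These distances describe 12 arrays from 4 groups and carry no test.

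Markers of other cell types also differed between the arrays with and without Prl. All 8 endothelial markers were above the floor on 10 of the 12 arrays and 7 of them on miR-21 1 and 2. Their median signal was 12.08 in scramble 3 and 13.25, 12.61 and 12.32 in miR-324 1, 2 and 4, and 8.74 to 10.66 in 7 of the other arrays. In miR-34a 3 it was 12.50, with Prl at 4.01. The log2 of their summed signal ranged from 14.17 to 16.50 in scramble, 13.87 to 14.55 in miR-21, 14.30 to 17.35 in miR-34a and 16.75 to 18.23 in miR-324. Macrophage markers had a median of 4.55 in scramble 3, 4.09 to 4.42 in miR-324 and 4.61 in miR-34a 3. The median was 5.07 to 5.32 in miR-21 and 7.36 to 7.90 in the arrays of suffix A. By the log2 of their summed signal scramble 3, at 9.07, lay within the 9.00 to 9.29 of miR-21. Sensory neuron markers had a median of 10.27 in scramble 3 and 8.74, 9.84 and 9.43 in miR-324, within the 8.10 to 11.63 of the others. Of 8 epithelial markers 3 or 4 were above the floor in scramble 3 and miR-324, and 1 or 2 on the others. Krt18, a keratin of simple epithelia and endocrine glands, was 5.63 in scramble 3 and 5.77, 5.62 and 6.08 in miR-324 1, 2 and 4, above the floor there and below it elsewhere, while Epcam was below it on every array. Cdh1, a cadherin and the epithelial marker with signal on all arrays, ran the other way, at 9.01 in scramble 3 and 9.08, 9.08 and 9.21 in miR-324, against 12.99 and 13.18 in scramble 1 and 2 and 9.58 in miR-34a 3. The log2 of the summed epithelial signal, which Cdh1 dominates, was 9.56 in scramble 3 and 9.52 to 9.72 in miR-324, and 9.80 to 13.31 elsewhere. Eif2s3y, carried on the Y chromosome, was 2.13 in scramble 3 and 7.88, 2.96 and 5.13 in miR-324 1, 2 and 4, so that arrays with Prl had both low and high values. Over all arrays it followed the suffix, at 2.13 to 2.96 on those with suffix A or B and 5.13 to 8.53 on those without. The part of these cell types in the hormone signals was not tested.

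**Figure D4:**
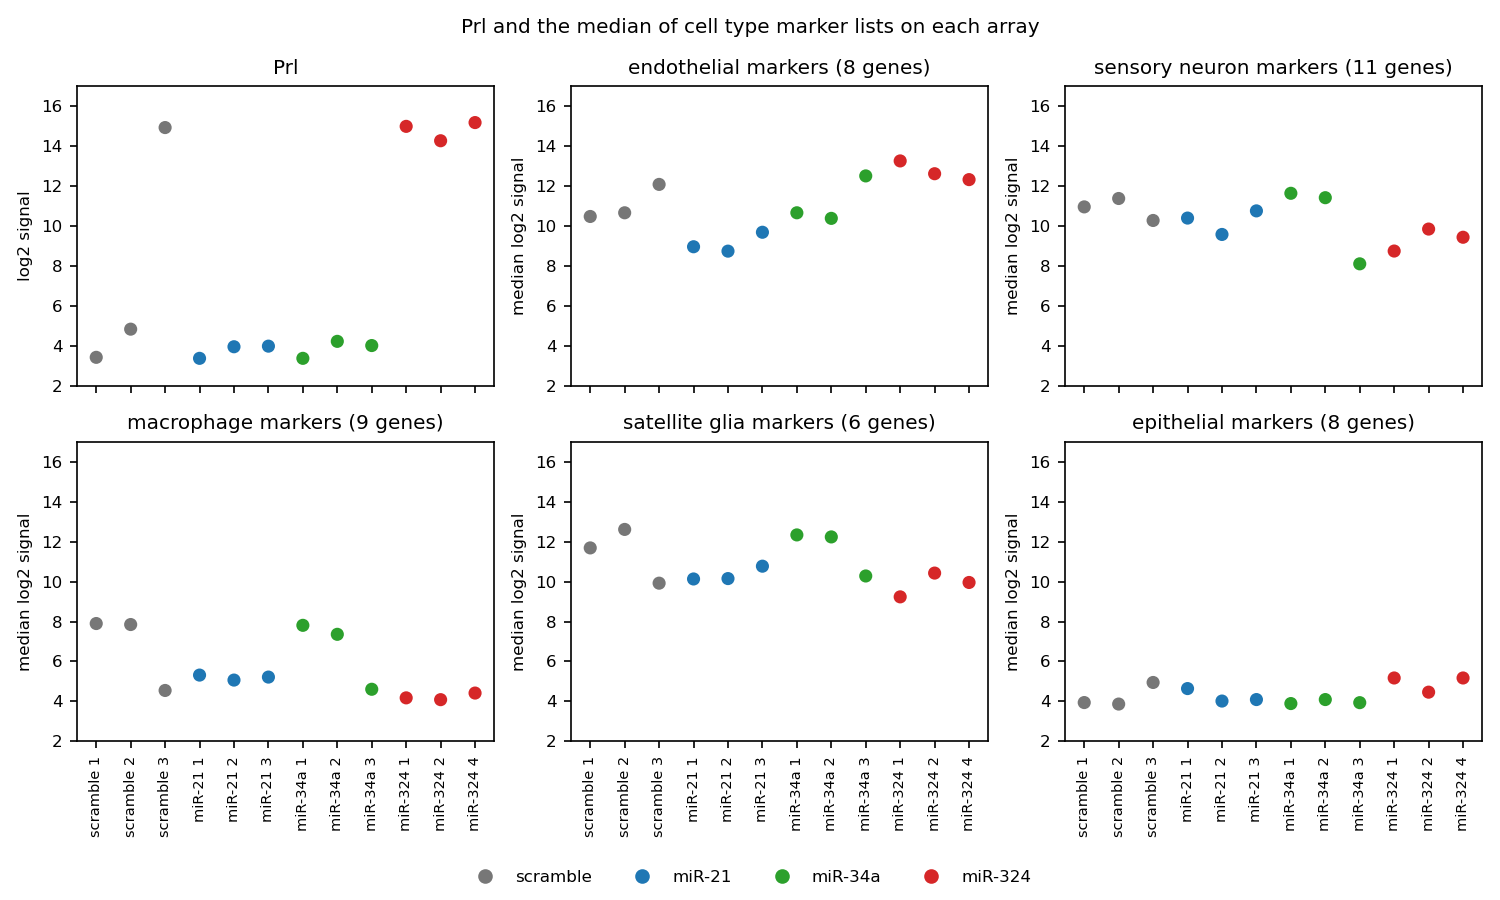
Log2 signal of Prl (first panel) and median log2 signal of 5 marker lists (other panels) on the 12 arrays, 1 point per array, coloured by group. Endothelial markers are high on the 4 arrays with Prl and also in miR-34a 3, where Prl is 4.01. Macrophage markers are at 4.09 to 4.61 on these 5 arrays and, at 5.07 to 5.32, are also low in miR-21, against 7.36 to 7.90 elsewhere.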

How the data were processed

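The values deposited by the authors are log2 signals. The submitters' processing notes name Transcriptome Analysis Console 4.0 and RMA as the tools the authors used. In its general form that method subtracts background, sets arrays to a common distribution and summarises probes. It thereby removes changes in total signal and can compress low values. The highest signal of an array lay between 18.77 and 19.77, and how this scale treats folds was not tested. The genome build is not given in the sources used here. Of 22206 probes, 19572 had 1 gene symbol in the platform table, 0 had several and 2634 were unnamed. The probe with the highest mean was taken per symbol. No 2 arrays held identical values.

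The 4 groups were fitted together in limma (version 3.58.1, under R 4.3.3) with lmFit and eBayes on 8 residual degrees of freedom. P-values were adjusted by Benjamini-Hochberg over 19572 probes, with a two-sided threshold of 0.05, and the fit was tested on simulated data. Array data have no depth, so the number of arrays limits precision.

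The members, lists and naming rule (all measured members; called genes of the lists; the 6 nearest profiles to Prl and the 3 nearest to members spanning at least 2 log2 units) were chosen with earlier results of these data known. No list gene was called, so the list genes and prolactin relatives named here were picked after their values were seen. Alternatives were another normalization or centring, dim probes removed, a variance trend, array weights, only the compared groups, suffix or label number as a block, the dimmest probe per symbol, and each array left out. The numbers in the labels were not treated as pairs: deviations from the group means correlated above 0.1 in 4 of 15 same-numbered pairs (−0.41 to 0.47). The label of scramble 3 opens with 3 and gives 1 as its own number. Without this array 3 of 13 pairs did so (−0.41 to 0.36).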

Additional observations from a re-analysis of the deposited data

How the results depend on the processing

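The count of further pituitary genes called was 0 in each of the 6 comparisons and stayed 0 in 87 of 102 alternatives. In many of these no probe at all passed, so the 0 was fixed and is no sign of stability. That held for miR-34a against scramble in every alternative. It held for miR-324 against scramble in all but array weights and the fit without scramble 3. The alternative with the dimmest probe per symbol was read from the main fit. With no alternative, 204, 0, 481, 0 and 31 of 19572 probes passed in miR-21 against scramble, miR-324 against scramble, miR-324 against miR-21, miR-324 against miR-34a and miR-34a against miR-21. With array weights it was 3 for miR-21 against scramble, 11 for miR-324 against scramble, 3 for miR-324 against miR-21, 9 for miR-324 against miR-34a and 2 for miR-34a against miR-21, beside 2390, 2589, 1788, 2806 and 2148 of all probes. The 11 were Gnrhr, Sstr5, Gata2, Sox2, Dlk1 and Tgfbr3l, higher, and Sstr2, Isl1, Rxrg, Oacyl and Aldh1a2, lower. With only the compared groups it was 2 for miR-21 against scramble and 2 for miR-324 against miR-21, beside 906 and 1043. With the suffix as a fixed block it was 1 for miR-21 against scramble, 6 for miR-324 against miR-21 and 3 for miR-34a against miR-21, beside 684, 1354 and 1004. In miR-324 against miR-21 it was 2 with the suffix as a random block, 1 after quantile normalization again and 1 (Aldh1a2) with the number in the label as a replicate block, a fit in which miR-324 4 has a level of its own and adds nothing. That block changed no other count of these genes. With scramble 3 as number 1, an alternative chosen after seeing the data, it called 0 in all 6 comparisons. Without 1 array the count ranged from 0 to 3 for miR-324 against miR-34a (3 without miR-34a 3: Sstr5, Rxrg and Oacyl) and from 0 to 1 for miR-34a against miR-21 (Sox2, without miR-34a 3). The cause of these changes was not tested.

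Among the differences of the 8 measured members, 30 of 432 alternatives changed sign, none of them for Prl, Gh, Cga, Pomc or Lhb in a comparison with miR-324. Each member has 1 probe, so the choice of probe could change nothing. Against scramble, Prl ranged from 4.93 to 10.68, Cga from 3.10 to 7.19 and Gh from 0.25 to 3.55. Against miR-21 and miR-34a, Prl ranged from 10.84 to 11.31 and 10.69 to 11.21, Cga from 6.07 to 8.13 and 6.68 to 8.74, and Gh from 2.58 to 4.93 and 2.52 to 4.87. Signal over the floor limits Tshb, Pitx1 and Tbx19, which lie below it on nearly all arrays.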
